A study of Mus musculus with 27 samples.

Results

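The collagen genes of mK4 cells were taken as every gene of the 9-library expression table whose symbol is Col, a number, the letter a and a number. The rule found 44 of 24953 genes and used no measured value. mK4 is a mouse cell line derived from metanephric mesenchyme, the embryonic kidney tissue that condenses into nephron epithelium. RNA-seq covered 3 genotypes with 3 libraries each, all grown to near confluence in medium with serum. Control cells were the parental line, Runx1KO cells carried a CRISPR deletion of the exon of Runx1 that holds its start codon, and ZebDKO cells carried deletions of the start codon exons of both Zeb1 and Zeb2. Runx1 is a DNA-binding transcription factor, and Zeb1 and Zeb2 are repressors known for holding epithelial genes down in mesenchymal cells. The knockout lines were expanded from picked clones. The number of clones per genotype is not given in the sources used here, so clone and genotype cannot be told apart. Whether the ZebDKO libraries were prepared or sequenced together with the others is not given either. In comparisons with ZebDKO, a batch of their own therefore cannot be told apart from genotype. The libraries were separate cultures of these lines, and p-values measure the spread between such cultures.

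Collagens are secreted proteins in which alpha chains, each made by its own gene, wind around each other as a triple helix. Fibrillar collagens form the cables of connective tissue, with type V and type XI chains built into fibrils of type I and type II. Type IV chains form the sheet of the basement membrane under every epithelium, and in the kidney the alpha3, alpha4 and alpha5 chains make the filtration barrier of the glomerulus. Type VI chains form beaded filaments around cells, FACIT collagens sit on the surface of fibrils, and mesenchymal cells are known as the main makers of the fibrillar and type VI chains.

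The targeted genes were looked at first. Runx1 stood between 15.6 and 18.7 TPM in control libraries and between 28.5 and 30.3 TPM in Runx1KO libraries, so the loss of 1 exon cannot be read from its gene total. In ZebDKO it stood between 9.4 and 10.5 TPM, below every control library (10.1 against 17.4 on average), a difference under the 2-fold limit. TPM is a transcript level scaled for gene length and for the total of the library. Zeb1 fell to between 0.1 and 0.2 TPM in Runx1KO from between 14.2 and 15.6 in control, and stood between 14.8 and 16.8 TPM in ZebDKO, where 1 exon was targeted. Zeb2 stood between 4.9 and 5.5 TPM in control, at 0.2 in every Runx1KO library, and between 1.6 and 1.8 in ZebDKO. Log-scale libraries of 1 genotype correlated across genes at r between 0.9941 and 0.9955, and between 12541 and 12697 genes reached 1 TPM in a library.

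Of 8 marker lists, the metanephric mesenchyme list had 7 of 10 genes at 1 TPM or more in every control and every ZebDKO library and 5 of 10 in Runx1KO. Its summed level was 724.9 to 732.8 TPM in control, 753.3 to 825.0 in Runx1KO and 632.3 to 661.3 in ZebDKO, with Hoxd11 listed at 0 in all libraries and Six2 and Wt1 under 1 TPM. Expressed members of the list went different ways. Mean levels in control, Runx1KO and ZebDKO were 66.4, 0.40 and 18.2 TPM for Osr1, 12.7, 0.10 and 39.8 for Gdnf, and 16.2, 5.87 and 17.0 for Eya1. For Pax2 they were 313.2, 470.0 and 222.1, for Sall1 52.1, 65.7 and 37.0, and for Hoxa11 214.1, 212.1 and 291.9. The general mesenchyme list of 5 genes, nearly all of it vimentin, summed to 2751.0 to 2889.3 TPM in control, 2782.7 to 2845.6 in Runx1KO and 2076.5 to 2115.0 in ZebDKO. The 2 stroma genes summed to 143.0 to 155.8, 92.4 to 97.3 and 82.2 to 86.0 TPM in the same order. The epithelial list of 5 genes, most of it the keratin Krt8, summed to 2.7 to 4.5 TPM in control, 2420.7 to 2512.6 in Runx1KO and 1102.8 to 1157.9 in ZebDKO. Cdh1, the defining epithelial cadherin, stayed under 1 TPM in all libraries, and Epcam was listed at 0 outside ZebDKO. Ureteric bud, endothelial and podocyte lists summed to at most 5.8 TPM in any library, with Ret, Wnt9b and Nphs1 at 0. The blood list of 3 genes summed to 2.5 to 3.2 TPM in control, 30.9 to 32.7 in Runx1KO and 26.1 to 29.2 in ZebDKO, most of it Csf1r in the knockouts, with Ptprc at 0. The stroma, epithelial and blood sums thus differed from control without overlap in both knockouts. So did the metanephric mesenchyme sum, which was higher in Runx1KO and lower in ZebDKO. The general mesenchyme sum overlapped between control and Runx1KO. The part of these cells or genes in the collagen results was not tested. In such bulk RNA, fewer cells of a type and less RNA per cell cannot be told apart.

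Taken as summed TPM, collagen mRNA was 1330 ± 22.0 (SD, n = 3) in control cells, 840.1 ± 5.83 in Runx1KO and 992.9 ± 17.3 in ZebDKO, with no overlap between the libraries of any 2 genotypes. The sum hides opposite changes between classes. Fibrillar collagen stood at 260.0 ± 5.77 TPM in control, 34.6 ± 1.21 in Runx1KO and 217.9 ± 5.61 in ZebDKO. Beaded filament collagen, type VI, stood at 443.1 ± 5.26, 35.1 ± 0.53 and 172.2 ± 3.97 TPM in the same order. Basement membrane collagen, type IV, ran the other way in Runx1KO, with 454.9 ± 12.04 TPM in control, 595.5 ± 5.81 in Runx1KO and 402.4 ± 10.6 in ZebDKO. The multiplexin class, nearly all Col18a1, stood at 104.7 ± 0.61, 137.5 ± 2.80 and 137.4 ± 1.01 TPM, and the FACIT class at 62.6 ± 5.78, 26.5 ± 1.94 and 48.2 ± 4.40 TPM. Type IV thus made up most of the collagen mRNA of Runx1KO cells, where type VI and fibrillar mRNA were a small share. No test was made on sums.

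**Figure D1:**
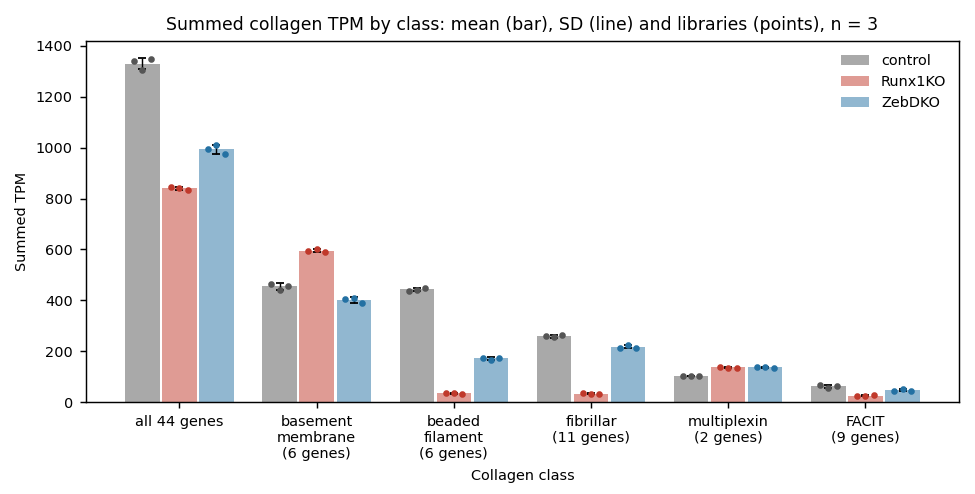
Summed TPM of all 44 collagen genes and of the 5 most abundant classes (vertical axis) in control, Runx1KO and ZebDKO cells; bars are means, lines SD and points the 3 libraries. Fibrillar and beaded filament collagen stood at 34.6 and 35.1 TPM in Runx1KO, against 260.0 and 443.1 in control, while basement membrane collagen stood at 595.5 against 454.9.

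Not every collagen gene is used by these cells. Of the 44 genes, 22 reached 1 TPM in at least 1 library, 14 reached 10 TPM, and 22 were tested in no comparison. Col9a1, Col19a1, Col25a1 and Col28a1 were listed at 0 in all 9 libraries. Mia3, an export factor for collagen that secretory cells use broadly, was also listed at 0 throughout, so a listed 0 may not mean absence. A further 18 genes stayed above 0 and under 1 TPM: Col1a2, Col2a1, Col24a1, Col6a3, Col6a4, Col6a5, Col6a6, Col9a2, Col14a1, Col20a1, Col22a1, Col15a1, Col8a1, Col8a2, Col10a1, Col17a1, Col23a1 and Col26a1. The highest single value among them was 0.9 TPM, for Col20a1 in ZebDKO. Known partner chains were missing from this tissue-culture repertoire. Col1a2, which encodes the chain that pairs with Col1a1 in type I collagen, was at most 0.3 TPM in any library, and Col6a3, the usual partner of the Col6a1 and Col6a2 chains, was at most 0.4.

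The highest mean levels over the 9 libraries were those of Col6a1 (165.5 TPM), Col4a2 (138.2), Col4a1 (137.4), Col18a1 (126.4), Col5a2 (105.2) and Col4a6 (95.3). This order pools unlike genotypes. The highest means were those of Col6a1 (330.5 TPM) and Col5a2 (148.9) in control, of Col4a1 (171.4) and Col4a2 (162.1) in Runx1KO, and of Col5a2 (152.8) and Col18a1 (137.3) in ZebDKO. The order of neighbouring levels depends on the gene lengths behind the TPM. In a further table of the control and Runx1KO libraries, Col4a1 had a control mean of 135.3 TPM and Col4a2 of 64.9, while the 9-library table gave 125.7 and 126.0. Levels of different collagen genes are therefore comparable only roughly. Differences on log2(TPM+1) also move with the length used. Between Runx1KO and control, that for Col4a3 was 3.46 in the further table and 3.94 in the 9-library table, and that for Col27a1 was -1.03 and -1.37.

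To see where chromatin changed beside these genes, starts were placed on mm9 gene models, and sequences at the starts and peaks the results turn on are given first. ATAC-seq, which maps accessible chromatin, was deposited as peaks lost in Runx1KO (Runx1-dependent), gained there (Runx1KO-induced) or kept (Runx1-independent). Capitals mark matches on either strand to the Runx motif TGTGGT or to the Zeb motifs CAGGTA and CAGGTG. A Zeb and a Runx match can share end bases, and a match is only a run of letters. In the middle 300 bases of a peak, 35.6% of Runx1-dependent peaks held a Runx match, against 20.9% of Runx1KO-induced and 19.8% of Runx1-independent peaks. A Zeb match was held by 18.7%, 62.7% and 33.3% in the same order.

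The first sequences lie in peaks gained in Runx1KO and belong to the 3 collagen genes whose mRNA rose there. Col4a4 and Col4a3 are transcribed away from each other, and the 71 bases between their annotated starts (chr1:82583425-82583495, plus strand, intergenic) lie inside 1 Runx1KO-induced peak. They hold neither motif:
Col4a4 to Col4a3 gap: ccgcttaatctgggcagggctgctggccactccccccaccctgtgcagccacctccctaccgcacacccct
The middle 300 bases of the induced peaks centred 12487 and 16335 bases inside Col4a3 (chr1:82595833-82596132 and chr1:82599681-82599980, plus strand, intron) hold 1 and 2 Zeb matches:
Col4a3 intron, first: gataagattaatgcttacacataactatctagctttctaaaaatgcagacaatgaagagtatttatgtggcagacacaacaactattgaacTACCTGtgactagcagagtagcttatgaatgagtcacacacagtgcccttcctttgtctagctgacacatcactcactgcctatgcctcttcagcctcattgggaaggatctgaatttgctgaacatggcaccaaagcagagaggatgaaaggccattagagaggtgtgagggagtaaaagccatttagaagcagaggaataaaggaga
Col4a3 intron, further: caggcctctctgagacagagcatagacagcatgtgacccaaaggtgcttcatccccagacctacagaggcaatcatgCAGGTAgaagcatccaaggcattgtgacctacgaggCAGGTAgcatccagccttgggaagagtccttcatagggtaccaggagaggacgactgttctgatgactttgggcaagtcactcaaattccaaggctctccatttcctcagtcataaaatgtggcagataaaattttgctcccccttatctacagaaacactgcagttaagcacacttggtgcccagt
The middle 300 bases of the induced peak centred 6812 bases inside Col13a1 (chr10:61434894-61435193, minus strand, intron) hold 1 Zeb match:
Col13a1 intron: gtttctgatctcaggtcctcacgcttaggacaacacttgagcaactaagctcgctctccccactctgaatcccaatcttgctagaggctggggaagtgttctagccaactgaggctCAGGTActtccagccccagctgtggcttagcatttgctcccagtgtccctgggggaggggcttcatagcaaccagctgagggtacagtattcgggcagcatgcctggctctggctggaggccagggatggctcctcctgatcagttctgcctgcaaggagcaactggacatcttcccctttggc

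The next sequences lie in peaks lost in Runx1KO, upstream of collagen genes whose mRNA fell there. For Col6a2 it is the part of the peak upstream of the start (chr10:76086376-76086659, minus strand), which holds neither motif:
Col6a2 upstream: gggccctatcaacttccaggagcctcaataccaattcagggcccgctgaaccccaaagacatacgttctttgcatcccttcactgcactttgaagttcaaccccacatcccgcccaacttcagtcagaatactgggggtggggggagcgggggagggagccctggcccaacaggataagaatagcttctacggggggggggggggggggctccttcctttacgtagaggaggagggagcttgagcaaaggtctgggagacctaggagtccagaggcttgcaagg
For Col5a1 the window is the middle of a peak 11650 bases upstream (chr2:27730145-27730444, plus strand, intergenic), with 2 Runx matches:
Col5a1 far upstream: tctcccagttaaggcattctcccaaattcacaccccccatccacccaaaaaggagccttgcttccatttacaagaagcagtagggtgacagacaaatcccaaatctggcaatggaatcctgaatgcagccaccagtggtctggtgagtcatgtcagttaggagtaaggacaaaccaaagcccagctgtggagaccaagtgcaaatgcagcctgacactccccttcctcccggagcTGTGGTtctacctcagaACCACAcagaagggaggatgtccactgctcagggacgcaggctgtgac
For contrast, a lost peak in the Col4a2 intron (chr8:11314651-11314950, plus strand) is bound by Runx1 in control cells and has 2 Runx matches, although neither Col4a1 nor Col4a2 mRNA fell in Runx1KO:
Col4a2 intron: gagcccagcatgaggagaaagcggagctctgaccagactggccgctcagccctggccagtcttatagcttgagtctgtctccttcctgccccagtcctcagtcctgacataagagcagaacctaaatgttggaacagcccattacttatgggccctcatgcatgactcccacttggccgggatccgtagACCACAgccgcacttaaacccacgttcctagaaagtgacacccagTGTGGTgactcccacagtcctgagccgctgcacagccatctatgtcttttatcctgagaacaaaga
These windows were chosen after the peaks and levels had been seen. Over their full width, the lost peaks centred 15285 bases upstream and 1646 bases downstream of the Col5a1 start hold no Runx match. The lost peaks at the starts of Col5a2, Col6a2 and Col12a1 hold none either. The full lost peaks at the starts of Col6a2 (941 bases) and Col12a1 (1315 bases) hold 2 and 1 Zeb matches. That of Col5a2 (435 bases) holds none. Col13a1 has further induced peaks, which are not printed. The one centred 1734 bases inside the gene holds no Zeb match over its full width, and the one at 13565 bases holds 1. The full peak behind the printed Col13a1 window holds 4. Shares of all peaks with a match were taken in the middle of each peak, so none exists for such full-width counts.

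To see which collagen genes differed in the Runx1KO line, it was compared with control. Of 20 collagen genes tested, 8 fell and 3 rose by over 2-fold at an adjusted p under 0.05, and 9 were not called. Among all 13067 genes tested, 5.1% fell and 7.91% rose by the same rule. The collagen genes that fell encode type VI, type V, type XI, type XII, type III and type XXVII chains, and those that rose encode type IV and type XIII chains. The median log2 difference was -0.05 over the collagen genes tested and -0.06 over all genes. Genes had to reach 1 TPM in at least 3 of the 6 libraries, and Col3a1, Col11a1, Col27a1 and Col13a1 passed in 1 genotype alone, so they had to differ. Libraries of the genotypes did not overlap for 19 of the 20, with 9 genes above control and 10 below, against 73.7% of all genes, 31.7% above and 42% below.

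Col6a2, a type VI chain, had 113.7, 108.6 and 113.7 TPM in the control libraries and 2.9, 2.8 and 2.7 in Runx1KO. The mean was 40-fold lower in Runx1KO, the largest drop among the collagen genes at 1 TPM or more in both genotypes (log2(TPM+1) difference -4.89 ± 0.04 SE, limma adjusted p = 1.64e-09). In ZebDKO it had 37.6, 36.3 and 39 TPM, below every control library and above every Runx1KO library. Col6a1, its partner chain, had 324.2, 332.7 and 334.5 TPM in control, 32.4, 31.8 and 31.8 in Runx1KO, and 137.5, 131.1 and 133.6 in ZebDKO. It was 10.3-fold lower in Runx1KO (difference -3.33 ± 0.03 SE, limma adjusted p = 1.31e-09), so the type VI chains with measurable mRNA both fell, and by unequal amounts. At the start of Col6a2 (chr10:76058507-76086375, minus strand) lay the Runx1-dependent peak whose upstream part is printed, whereas the start of Col6a1 (chr10:76171537-76188913, minus strand) had 3 Runx1-independent peaks within 20 kb and no Runx1-dependent one. No Runx1 ChIP-seq peak lay within 20 kb of either start.

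Type V chains set the diameter of type I fibrils. Col5a2 had 148.8, 148.1 and 149.9 TPM in control and 15.3, 13.2 and 13.5 in Runx1KO, 10.6-fold lower (difference -3.32 ± 0.05 SE, limma adjusted p = 1.66e-08). In ZebDKO it had 150.8, 158.3 and 149.3 TPM, a range that overlaps control. Its partner Col5a1 had 97.4, 92.7 and 98.7 TPM in control, 17.7, 17.1 and 17.6 in Runx1KO, and 47.4, 49.3 and 48 in ZebDKO. Col5a1 was 5.51-fold lower in Runx1KO (difference -2.40 ± 0.04 SE, limma adjusted p = 1.2e-08). The start of Col5a2 (chr1:45431166-45560127, minus strand) lay in a Runx1-dependent peak, and 3 such peaks lay within 20 kb of the start of Col5a1 (chr2:27741945-27895034, plus strand). The 1 Runx1 ChIP-seq peak near Col5a1 lay 5896 bases inside the gene, outside all 3 of them.

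Col12a1, a FACIT collagen of fibril surfaces, had 51.8, 41.1 and 46.6 TPM in control, 2.7, 3.1 and 2.7 in Runx1KO, and 29.6, 35.9 and 27.7 in ZebDKO. It was 16.4-fold lower in Runx1KO (difference -3.63 ± 0.09 SE, limma adjusted p = 9.58e-08), with a Runx1-dependent peak at its start (chr9:79446798-79566638, minus strand). A Runx2 ChIP-seq peak overlapped that peak both in control and in Runx1KO cells. Col11a1, a fibrillar chain known from cartilage, had 5.3, 6 and 7.4 TPM in control and 0.1, 0.1 and 0 in Runx1KO (difference -2.75 ± 0.12 SE, limma adjusted p = 1.47e-06). It passed the expression filter through control alone in that comparison and had to differ. It had 3, 2.8 and 2.9 TPM in ZebDKO, below control and far above Runx1KO. No peak of any ATAC-seq class lay within 20 kb of its start (chr3:113733458-113923636, plus strand).

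Col3a1, a fibrillar collagen of soft tissue, was low throughout, with 1.3, 1.2 and 1.8 TPM in control, 0, 0.1 and 0 in Runx1KO and 0.1 in each ZebDKO library. It fell in both knockouts, by 1.23 ± 0.12 SE in Runx1KO and by 1.14 ± 0.12 SE in ZebDKO on the log2 scale (limma adjusted p = 0.000103 and 7.69e-05). Col3a1 passed the filter through control alone in both comparisons and had to differ, so the p-values add nothing to the levels. Both comparisons used the same control libraries.

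Col4a3 and Col4a4 encode chains of the mature glomerular basement membrane and share the 71 bases between their starts. Col4a3 (chr1:82583496-82718634, plus strand) had 1.4, 1 and 1.1 TPM in control, 32.5, 32.5 and 31.7 in Runx1KO, and 27.7, 30.5 and 26.5 in ZebDKO. The rise was 27.6-fold in Runx1KO (difference 3.94 ± 0.08 SE, limma adjusted p = 2.85e-08) and 24.2-fold in ZebDKO (3.76 ± 0.09 SE, adjusted p = 6.25e-08). Col4a4 (chr1:82447298-82583424, minus strand) had 1.9, 1.6 and 1.7 TPM in control, 19.3, 19 and 20.3 in Runx1KO, and 17.7, 16.3 and 16.1 in ZebDKO. It rose 11.3-fold in Runx1KO (2.91 ± 0.06 SE, limma adjusted p = 4.75e-08) and 9.63-fold in ZebDKO (2.70 ± 0.07 SE, adjusted p = 9.58e-08). All 6 knockout libraries lay far above all 3 control libraries for both genes. The peak over the shared start was 1328 bases wide and held 4 Zeb matches. The shares of peaks with a Zeb match cover only the middle of each peak, so this full-width count has no share to be read against. No Runx1 or Runx2 peak lay within 20 kb of either start.

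Col13a1, a transmembrane collagen of cell contacts, was listed at 0 in all control and all ZebDKO libraries and had 2, 2.4 and 1.9 TPM in Runx1KO (difference 1.63 ± 0.10 SE, limma adjusted p = 7.51e-06 against control). It passed the expression filter through Runx1KO alone and had to differ. Among the collagen genes at 1 TPM or more in at least 1 library, it was the only one at 0 in every library of 2 genotypes. Within 20 kb of its start (chr10:61300984-61441856, minus strand) lay 3 Runx1KO-induced peaks, and no Runx1 or Runx2 peak.

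Col27a1, a fibrillar collagen known from cartilage, went in opposite directions in the knockouts. It had 2.3, 2.6 and 3.6 TPM in control, 0.4, 0.6 and 0.4 in Runx1KO, and 7.2, 6.9 and 6.9 in ZebDKO, so the genotypes do not overlap. The difference from control was -1.37 ± 0.14 SE in Runx1KO and 1.08 ± 0.12 SE in ZebDKO (limma adjusted p = 0.000112 and 0.000115). In Runx1KO against control, Col27a1 passed the expression filter through control alone and had to differ. The ZebDKO call rests on control replicate 1, without which the difference was 0.98 and below the 2-fold limit.

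**Figure D2:**
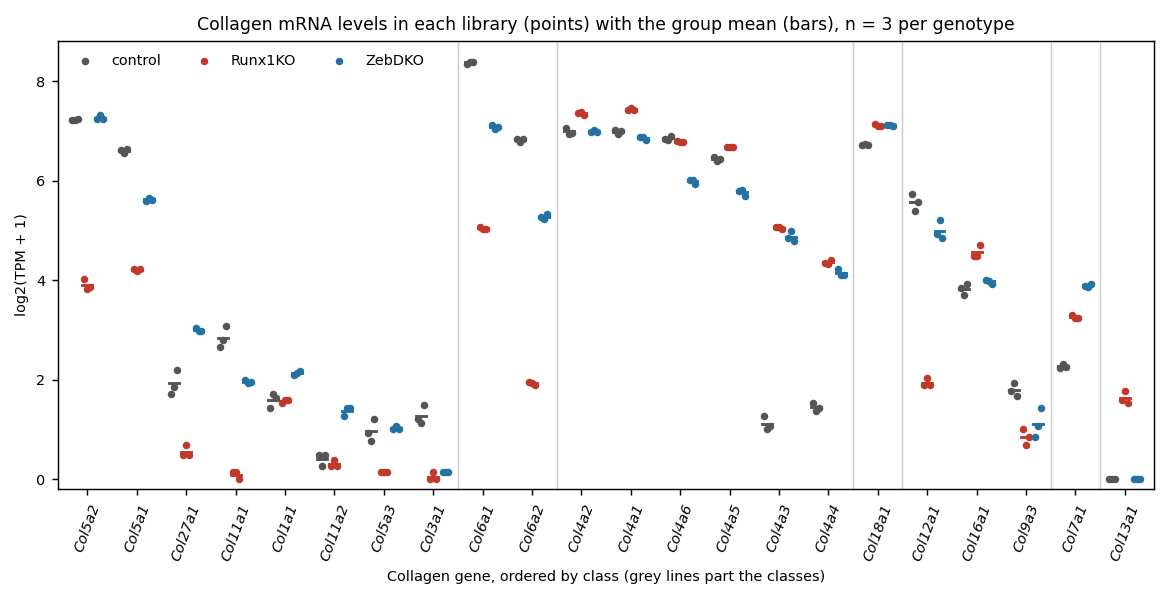
Level of each of the 22 tested collagen genes as log2(TPM + 1) (vertical axis) in control, Runx1KO and ZebDKO libraries; points are libraries, bars group means, n = 3. Col4a3 and Col4a4 lie high in both knockouts and low in control, while Col5a2 is low in Runx1KO alone and Col27a1 is lower than control in Runx1KO and higher in ZebDKO.

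Collagen genes that were tested and not called stayed under the 2-fold limit on the log2(TPM+1) scale. The widely used basement membrane pair Col4a1 (chr8:11198423-11312826, minus strand) and Col4a2 (chr8:11312805-11449287, plus strand), whose annotated starts overlap, stood 1.36-fold and 1.29-fold higher in Runx1KO, at 171.4 and 162.1 TPM against 125.7 and 126.0 in control. Their log2 differences were 0.44 ± 0.03 and 0.36 ± 0.04 SE, under the 2-fold limit. In ZebDKO the pair stood at 115.2 and 126.4 TPM, and the Col4a1 difference of -0.12 ± 0.03 SE from control turned to 0.0764 under median-ratio scaling. Near these starts lay 2 Runx1-dependent peaks, and both were bound by Runx1 in control cells, at 6.4-fold and 9-fold over background.

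The X-linked pair Col4a5 (chrX:137909928-138123778, plus strand) and Col4a6 (chrX:137599946-137908619, minus strand), 1308 bases apart at their starts, encode chains of tubular and capsular basement membranes. Col4a5 had 88.4, 83.5 and 86 TPM in control, 101.2, 100.8 and 101.6 in Runx1KO, and 54.5, 54.8 and 50.7 in ZebDKO. Col4a6 had 112.9, 111.5 and 118.8 TPM in control, 110.2, 108.4 and 108.4 in Runx1KO, and 63.1, 63.9 and 60.4 in ZebDKO. Both stood lower in ZebDKO than in every control library, by 0.68 ± 0.04 and 0.86 ± 0.04 SE on the log2 scale, which misses the 2-fold limit.

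Col18a1, a basement membrane proteoglycan and the source of endostatin, had 103.8, 105 and 104.6 TPM in control and 135.8 to 140.6 in Runx1KO. In ZebDKO it had 136.3 to 138.3 TPM, and the difference between the knockouts was -0.00053 ± 0.03 SE on the log2 scale (limma adjusted p = 0.987). Col16a1, a FACIT collagen, stood at 13.2 ± 1.07 TPM in control, 22.6 ± 2.05 in Runx1KO and 14.7 ± 0.47 in ZebDKO. Col1a1, the main chain of type I collagen, stood at only 2.03 ± 0.31, 1.97 ± 0.06 and 3.40 ± 0.10 TPM. Col9a3, a FACIT chain of cartilage, stood at 2.47, 0.80 and 1.20 TPM in the same order. Its difference in Runx1KO, -0.95 ± 0.12 SE, lay just under the limit, and 6 of 15 alternatives called it. Col5a3, a minor type V chain, stood at 0.97, 0.10 and 1.03 TPM and was not tested in Runx1KO against control.

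To ask which changes were also seen in the ZebDKO line, it was compared with control. Of 21 collagen genes tested, 4 rose and 3 fell, against 7.49% and 7.28% of 12974 genes tested. Those that rose were Col4a3, Col4a4, Col7a1 and Col27a1, and those that fell were Col6a1, Col6a2 and Col3a1. The median over all genes was -0.18 in this comparison and about 0 after median-ratio scaling, so small differences here are read relative to that shift. Against it, the collagen median was 0.01. Libraries did not overlap for 18 of the 21, with 8 above control and 10 below, against 81% of all genes, 27.7% above and 53.3% below. Col3a1 and Col11a2 passed the expression filter in 1 genotype alone, so they had to differ. Col7a1, the anchoring fibril collagen that ties epithelium to the stroma below, had 3.7, 4 and 3.8 TPM in control, 8.9, 8.4 and 8.4 in Runx1KO, and 13.8, 13.6 and 14.2 in ZebDKO. It rose 3.62-fold in ZebDKO (difference 1.62 ± 0.05 SE, limma adjusted p = 3.03e-07). In Runx1KO its difference of 0.98 ± 0.06 SE lay just under the limit, and it passed without control replicate 2 at 1.01, with pseudocounts of 0.1 and 0.5 at 1.14 and 1.07, and under median-ratio scaling at 1.04. Col6a1 and Col6a2 fell 2.46-fold and 2.98-fold in ZebDKO (-1.30 ± 0.03 and -1.55 ± 0.04 SE, limma adjusted p = 5.95e-08 and 9.13e-08), less than in Runx1KO. Col5a1 stood lower by 0.98 ± 0.04 SE and missed the limit, which it passed without control replicate 2 at -1.01. Col12a1 and Col11a1, at differences of -0.57 ± 0.11 and -0.88 ± 0.11 SE, were not called.

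The knockouts were then compared with each other, which tests whether a collagen gene differs between the Runx1KO and ZebDKO lines. This comparison cannot separate loss of Runx1 from loss of Zeb1 and Zeb2, whose mRNA also fell in Runx1KO, nor genotype from clone or batch. Of 21 collagen genes tested, 8 were higher and 1 lower in ZebDKO than in Runx1KO, against 6.59% and 9.2% of 13071 genes. The median over all genes was -0.15 and over the collagen genes 0.57. Libraries did not overlap for 19 of the 21, with 11 above Runx1KO and 8 below, against 81.7% of all genes, 30.7% above and 51% below. Col11a1, Col11a2, Col27a1, Col13a1 and Col5a3 passed the filter in 1 genotype alone and had to differ. Higher in ZebDKO were Col5a2 (difference 3.36 ± 0.06 SE), Col6a2 (3.35 ± 0.05), Col12a1 (3.06 ± 0.10), Col27a1 (2.45 ± 0.08), Col6a1 (2.03 ± 0.03), Col11a1 (1.87 ± 0.09), Col5a1 (1.41 ± 0.04) and Col11a2 (1.07 ± 0.10), with limma adjusted p between 1.45e-08 and 3.69e-05. Col11a2, a fibrillar chain that pairs with Col11a1, had 0.4, 0.2 and 0.4 TPM in control, 0.2, 0.3 and 0.2 in Runx1KO, and 1.4, 1.7 and 1.7 in ZebDKO. Col13a1 was lower in ZebDKO by 1.63 ± 0.10 SE (limma adjusted p = 4.62e-06). Col4a3 and Col4a4 were close in the knockouts, at -0.19 ± 0.05 and -0.21 ± 0.05 SE, near the median of all genes. Col7a1, Col16a1 and Col18a1 also stood above every control library in both knockouts. Col7a1 differed between the knockouts by 0.64 ± 0.05 SE, under the limit. The type V, VI and XII chains called here were lower in Runx1KO than in ZebDKO.

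**Figure D3:**
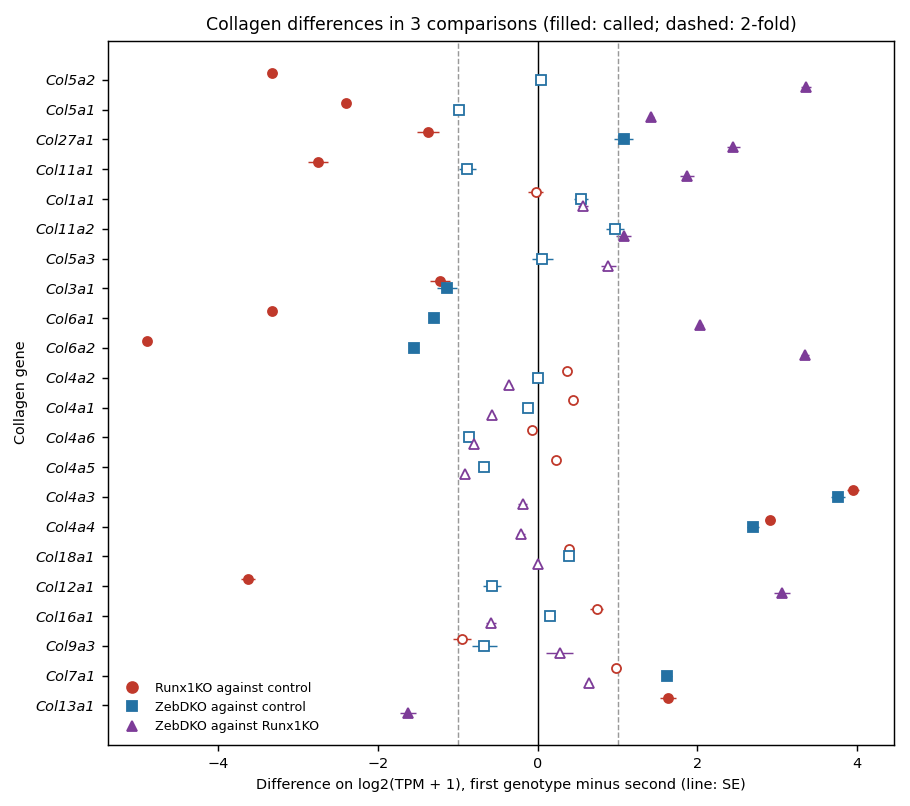
Difference on log2(TPM + 1) (horizontal axis, first genotype minus second, line SE) of the 22 tested collagen genes in 3 comparisons; filled symbols were called, dashed lines mark 2-fold. Col5a2 lies at -3.32 for Runx1KO against control and at 0.04 for ZebDKO against control, whereas Col4a3 lies at 3.94 and 3.76.

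Near gene starts, all 44 collagen genes had a position in mm9, 1 of them under an older symbol, as did 94.7% of all genes tested. Within 20 kb on either side of the start, 13 of 44 collagen genes had a Runx1-dependent peak, 11 a Runx1KO-induced peak and 10 a Runx1 ChIP-seq peak. Of the 20 collagen genes tested in Runx1KO against control, 7 (35.0%) had a Runx1-dependent peak, 7 an induced peak and 7 a Runx1 peak, against 17.2%, 27.4% and 36.3% of all genes tested. The 8 genes that fell had a Runx1-dependent peak in 4 cases, Col5a1, Col5a2, Col6a2 and Col12a1, and no induced peak. This 50% is close to the 52.7% of all 634 genes that fell and had a position. An induced peak lay near 13.2% of those 634 genes. Each of the 3 genes that rose had an induced peak, as did 68.7% of the 965 genes that rose and had a position. None of the 3 had a Runx1-dependent or a Runx1 peak, against only 12.7% and 26.7% of the 965. Col4a3 and Col4a4 share the same induced peaks, so they are not separate cases. Likewise, Col4a1 shares its Runx1 peaks with Col4a2, and Col4a5 shares its own with Col4a6. Within 50 kb, 2 of the 3 that rose had a Runx1 peak, and of the 8 that fell 3 had an induced, 6 a Runx1-dependent and 3 a Runx1 peak. Within 20 kb, only Col5a1 of the 8 that fell had a Runx1 peak, against 28.2% of all genes that fell. A Runx2 ChIP-seq peak lay within 20 kb of 4 of the 8, Col3a1, Col5a1, Col6a1 and Col12a1. This held in control and in Runx1KO, against 51.9% and 53.3% of all genes that fell. The lists pool replicates, so these are counts without a test, and a peak near a start need not act on that gene.

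**Figure D4:**
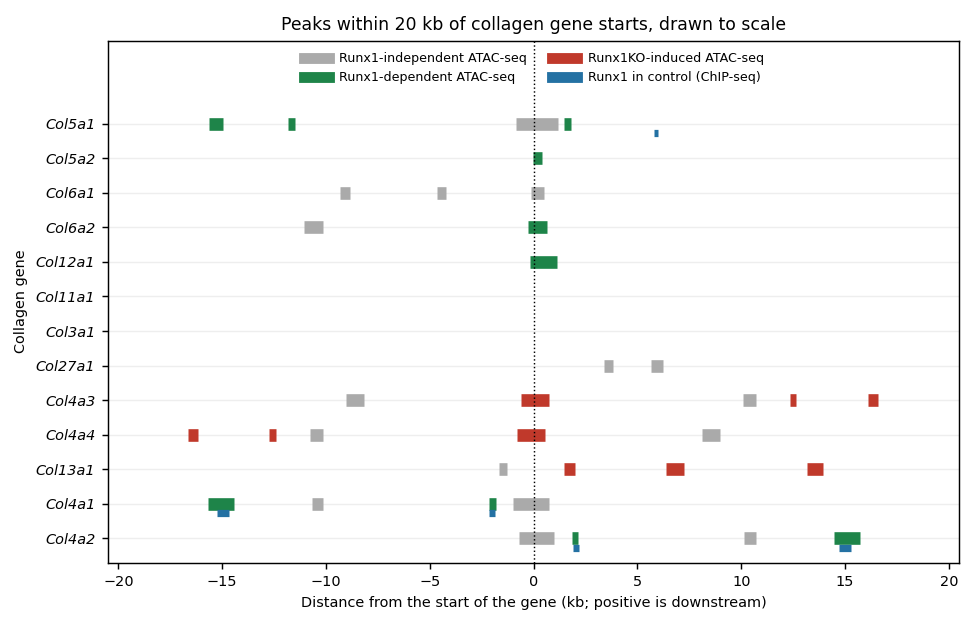
Peaks within 20 kb of the starts of 11 collagen genes called in Runx1KO against control and of Col4a1 and Col4a2; the horizontal axis is the distance from the start in kb, and bars are peaks drawn to scale, with Runx1 ChIP-seq peaks below the line. Runx1-dependent peaks lie at the starts of Col5a2, Col6a2 and Col12a1, and a Runx1KO-induced peak at the shared start of Col4a3 and Col4a4.

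Genes that modify, process and bind collagen were taken from lists of 46, of which 40 were in the table. Of the modification and folding genes, 14 of 18 were tested in Runx1KO against control, with 2 higher, none lower, and 12 not called, where 7.91% of all genes rose and 5.1% fell. In ZebDKO against control 13 were tested and none was called, where 7.49% of all genes rose and 7.28% fell. P4ha3, a prolyl hydroxylase subunit, had 0.9, 0.2 and 1.2 TPM in control, 3.6, 3.7 and 4 in Runx1KO and at most 0.3 in ZebDKO. P3h4, part of a lysyl hydroxylation complex, stood 2.06-fold higher in Runx1KO, at 63.8 against 31.0 TPM (difference 1.02 ± 0.09 SE, limma adjusted p = 4.03e-05), and at 16.5 in ZebDKO. The collagen chaperone Serpinh1 stood between 203.2 and 222.5 TPM in control, 145.5 and 150.4 in Runx1KO, and 210.1 and 214.7 in ZebDKO.

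Of the propeptide cleavage and cross-linking genes, 8 of 13 were tested in either knockout against control, with 2 higher and 2 lower in each, against 7.91% higher and 5.1% lower of all genes in Runx1KO and 7.49% and 7.28% in ZebDKO. Adamts14 passed the filter through control alone in Runx1KO against control, so it had to differ. Loxl1, a lysyl oxidase that cross-links fibres, had 67.5, 65.2 and 64.9 TPM in control, 3, 2.4 and 3.1 in Runx1KO and 19.6, 19.7 and 23.7 in ZebDKO. It fell 23.2-fold in Runx1KO (-4.13 ± 0.08 SE, limma adjusted p = 2.34e-08) and 3.14-fold in ZebDKO (-1.61 ± 0.07 SE, adjusted p = 1.29e-06), in the same order as the type VI chains. Loxl4 rose 2.18-fold in Runx1KO and 2.76-fold in ZebDKO, from 26.0 TPM. Pcolce2, an enhancer of procollagen cleavage, had 1.2, 0.5 and 0.6 TPM in control, 18.4, 16 and 17.8 in Runx1KO and 47.9, 45.7 and 46.8 in ZebDKO, while its relative Pcolce fell 2.13-fold in ZebDKO, from 569.1 to 267.6 TPM. In Runx1KO Pcolce stood at 290.9 TPM, 1.96-fold below control and just under the limit (-0.97 ± 0.02 SE), and the knockouts differed by -0.12 ± 0.03 SE. Adamts14, a propeptide protease, stood at 1.73 TPM in control, 0.10 in Runx1KO and 1.37 in ZebDKO. Lox itself was listed at 0 in all libraries.

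Of the receptor and uptake genes, 7 of 9 were tested in Runx1KO against control, with 2 lower and none higher, and 8 in ZebDKO against control, with 2 lower and 2 higher. Of all genes, 5.1% fell and 7.91% rose in the first comparison and 7.28% and 7.49% in the other. Mrc2 in both comparisons and Itga2 in ZebDKO passed the filter through 1 genotype alone and had to differ. Mrc2, an endocytic receptor that clears collagen, had 27.3, 26.9 and 28.7 TPM in control, 0 in each Runx1KO library and at most 0.2 in ZebDKO. Ddr2, a receptor tyrosine kinase for fibrillar collagen, fell 2.54-fold in Runx1KO and 3.17-fold in ZebDKO, from 83.8 TPM. The collagen-binding integrin chain Itga2 stood at 0.50 TPM in control, 0.13 in Runx1KO and 3.60 in ZebDKO, and Itga10 rose 3.54-fold in ZebDKO, from 6.50 to 23.0 TPM.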

How the data were processed

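RNA-seq covered 9 libraries, 3 each of control, Runx1KO and ZebDKO cells. ATAC-seq and ChIP-seq entered as peak lists. Per the study's methods and notes, the authors mapped trimmed reads to mm9 with STAR, counted RefSeq genes with featureCounts 1.6.2 and deposited TPM, with the lengths and strand setting not given in the sources used here. They deposited MACS2 peaks, for ChIP-seq called on pooled replicates with score, fold over background and −log10 q, and for ATAC-seq split by 2-fold change in accessibility. The log2 and −log10 p columns of the authors' own ATAC-seq comparison were not used. TPM and peak lists keep no read number, so depth is unknown.

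Genes at 1 TPM or more in at least 3 of the 6 libraries compared were fitted on log2(TPM+1) with limma 3.58.1 (R 4.3.3, variance trend, two-sided, Benjamini-Hochberg over all genes tested) and called at an absolute log2 difference over 1 and adjusted p under 0.05. Differences on this scale understate changes of low genes. Peaks were placed within 20 kb of the 5′-most start in GENCODE vM1 models of mm9 by at least 1 bp, with Python 3.11.15, pandas 2.3.3 and pysam 0.24.0, and sequences were read from mm9, of which 1 is not reported here. Code was tested on simulated data. All 44 collagen genes were named. Full values were given for those called, for the 6 of highest mean and for head-to-head pairs, and up to 6 called pathway genes per comparison. The members and lists were chosen with earlier results of these data known. Alternatives were other pseudocounts, filters, scalings, fits and fold limits, a table of 6 libraries, each library left out, and other windows and q limits for peaks.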

Additional observations from a re-analysis of the deposited data

Results flagged for a closer look

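The difference between the knockouts was tested directly and was past the limits for 9 of 21 collagen genes, against 15.8% of all genes tested. Of the 9, Col11a1, Col11a2, Col27a1 and Col13a1 passed the expression filter through 1 knockout alone and had to differ, so their tests add nothing to the values. As log2(TPM+1) in ZebDKO minus Runx1KO, it was 3.36 for Col5a2, 3.35 for Col6a2, 3.06 for Col12a1, 2.45 for Col27a1, 2.03 for Col6a1, 1.87 for Col11a1, 1.41 for Col5a1, 1.07 for Col11a2 and -1.63 for Col13a1. Only Col27a1 was called in both knockouts against control in opposite directions. Groups of 3 libraries are too small to look for a library that stands apart.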

How the results depend on the processing

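Where the gene was still tested, the 27 calls of a collagen gene in a comparison kept their direction and call in 434 of 435 alternatives, and the exception was Col27a1 in ZebDKO against control without control replicate 1. With a filter of 5 TPM, 7 of the 27 were no longer tested: Col3a1, Col13a1 and Col27a1 in Runx1KO against control, Col3a1 in ZebDKO against control, and Col11a1, Col11a2 and Col13a1 between the knockouts. In the 6-library table Col3a1 was not tested. Over all collagen genes tested, 950 of 993 alternatives kept the call and the direction of any difference at adjusted p under 0.05. A further 41 added a call and 1 reversed such a direction. This was Col4a1 in ZebDKO against control, which went from -0.12 to 0.0764 under median-ratio scaling. Sign changes of uncalled differences at higher adjusted p are not counted as reversed. An example is Col1a1 in Runx1KO against control, which ranged from -0.1644 to 0.036. With a limit of 1.3-fold, which called 37.2% of all genes in Runx1KO, 52.0% in ZebDKO and 51.9% between the knockouts, 7 collagen genes rose in Runx1KO, 7 rose and 9 fell in ZebDKO, and 5 were lower in ZebDKO than in Runx1KO. With a pseudocount of 0.1, which called 19.1% of all genes in either direction, 5 fell in ZebDKO against control. At 5 TPM, 0 collagen genes were therefore lower in ZebDKO than in Runx1KO, with 13.4% of all genes called in either direction. Leaving out each library moved no count of collagen genes by over 1.5 times.

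Alternatives for the pathway genes and the sums were chosen after seeing the data. At 1.3-fold, with the same shares of all genes called, 7 pathway genes rose and 13 fell in Runx1KO, 8 rose and 10 fell in ZebDKO, and 13 were higher in ZebDKO than in Runx1KO. At 5 TPM, 3 were higher and 1 lower in that comparison, with fewer genes tested and 13.4% of all genes called in either direction. Median-ratio scaling gave summed collagen TPM of 1247.8 in control, 818.2 in Runx1KO and 1070.9 in ZebDKO. With 50 kb windows, 21 collagen genes had a Runx1-dependent, 22 an induced and 21 a Runx1 peak; with 5 kb windows, 3 had an induced and 4 a Runx1 peak; over gene bodies, 22 had a Runx1-dependent peak.

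Replicate numbers did not pair libraries: same-numbered libraries deviated with r between -0.053 and 0.039. The fit with the replicate block gave the same count of collagen genes in all 6 cases. In Runx1KO against control, 8 were lower and 3 higher, where this fit called 13.1% of all genes. TPM keeps no read number, so the precision of genes near 0, which move in steps of 0.1 TPM, is not known.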
